A study of Mus musculus with 24 samples.

Results

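Exposure to tamoxifen for 2 months was compared with exposure to letrozole for 2 months in the mammary gland of aged mice of the Esr1 line. The comparison used 6 of the 24 RNA sequencing libraries, 3 labelled as Esr1 mice given tamoxifen and 3 as Esr1 mice given letrozole, and the libraries were chosen by these labels alone. All 6 mice carried MMTV-rtTA and tet-op-Esr1, were 20 months old and had had the transgene induced for 8 months. In this design the MMTV promoter, which is active mainly in mammary and some other epithelia, drives the rtTA activator that switches on Esr1. The drugs came from pellets under the skin, 25 mg of tamoxifen or 2.5 mg of letrozole over 60 days, started at 18 months of age. Beside them stand the 3 untreated Esr1 mice of 20 months with the same induction, and the 6 mice of 20 months that carried MMTV-rtTA and tet-op-CYP19A1 and received the same pellets. The untreated mice bear the tag PLA, which the labels do not explain, and no mouse in the series lacked a transgene. The series asks whether these anti-hormonal drugs act differently on a gland with either of these breast cancer risk factors.

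Oestrogen acts in the mammary gland through oestrogen receptor alpha, the product of Esr1, in the hormone-sensing luminal cells of the ducts, which respond with the progesterone receptor and with secreted signals to their neighbours. Tamoxifen is converted to metabolites that bind the receptor and block or partly activate it, depending on the tissue. Letrozole inhibits aromatase, the enzyme that makes oestrogens from androgens, and so lowers the ligand and leaves the receptor itself unbound.

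The values are TPM, transcripts per 1000000, in whole gland tissue, and differences are tamoxifen minus letrozole on the log2(TPM + 1) scale with the standard error of the fit, n = 3 mice per group. On this scale the change of a low gene is understated, and in bulk tissue fewer cells of a type and less RNA per cell cannot be told apart. Esr1, the gene the line is named for, was at 14.55, 13.64 and 17.41 TPM in tamoxifen replicates 1 to 3 and at 15.05, 16.83 and 16.09 TPM under letrozole. The groups overlapped, and Esr1 differed by -0.07 ± 0.21 (limma adjusted p = 0.985). The endogenous Cyp19a1 was listed at 0.11 TPM in letrozole replicate 1 and at 0 in the other 5 libraries. Luminal keratins, Elf5, the basal keratins, adipocyte and muscle genes were all present, as in a whole gland with fat and adjoining muscle.

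The libraries were not alike within the tamoxifen group. Tamoxifen replicate 2 had 3.54% of its TPM on ribosomal RNA gene models against at most 0.346% in the other 5 libraries, and 17291 genes at 1 TPM or more against at most 16240. Its milk protein genes summed to 7693 TPM, against 1496 and 767 TPM in the other tamoxifen mice and 444 to 922 TPM under letrozole. Tamoxifen replicate 3 lay with the letrozole libraries for a set of genes that includes Rps2 and Rpl34. Tamoxifen replicate 1 was the lowest of the 3 tamoxifen libraries in 16 of the 19 genes that passed higher. Among the untreated Esr1 libraries, replicate 2 held 31.3% ribosomal RNA. Its values are given for reference, but it was part of the fit and so of the spread behind every standard error and p. Without it 34 genes passed in the Esr1 line, all 25 of the main calls among them.

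The drugs left the gland with few differences that passed the test. Of 19325 genes tested, 25 passed at an adjusted p under 0.05 (0.129%), 19 higher under tamoxifen (0.0983%) and 6 lower (0.031%). At an unadjusted p under 0.05 there were 1475 genes (7.63%), of which 1144 were higher (5.92%) and 331 lower (1.71%) under tamoxifen. All 3 tamoxifen libraries lay above all 3 letrozole libraries in 11.8% of the genes tested and below them in 6.93%. The median difference over all genes was 0.05. The genes led by Mmd2 and Flrt1 stood clear of the rest, as the plot of all genes shows.

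**Figure D1:**
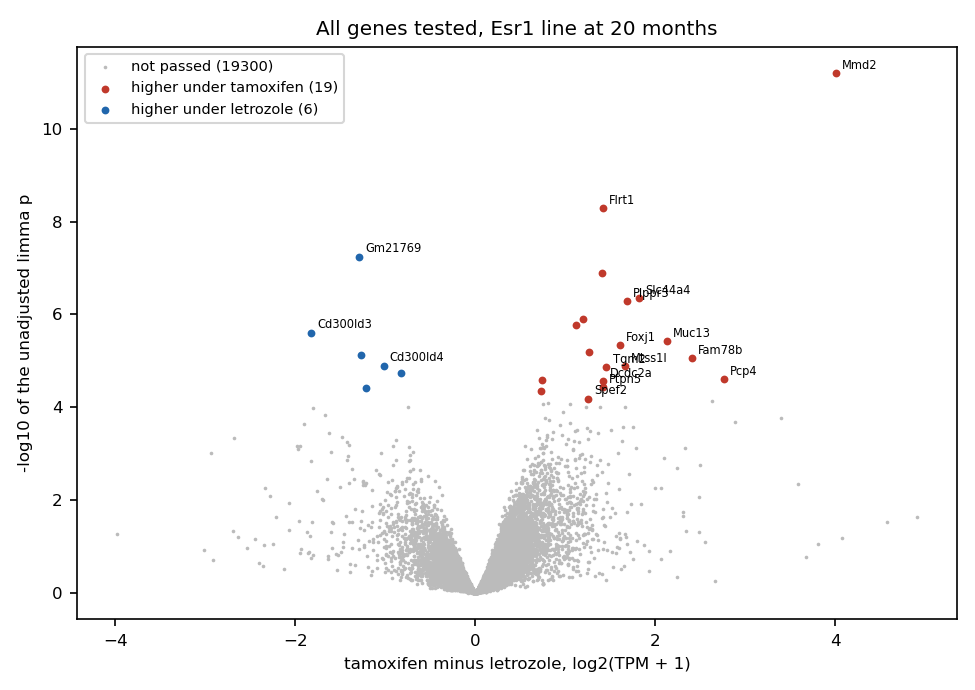
Each point is a gene, with the tamoxifen minus letrozole difference in log2(TPM + 1) on the x axis and the -log10 of the unadjusted limma p on the y axis. Red points mark the 19 genes that passed higher under tamoxifen and blue points the 6 that passed higher under letrozole, with Mmd2 at the upper right at a difference of 4.01.

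Among the genes that passed, the largest difference was in Mmd2, a membrane protein of the progestin and adipoQ receptor family. Mmd2 was at 9.08, 17.54 and 28.71 TPM in the tamoxifen libraries and at 0.12, 0.10 and 0.08 TPM in the letrozole libraries. It was near 0 in every letrozole library and in every untreated one, where it reached at most 0.06 TPM, and clearly present in every tamoxifen library. The difference was 4.01 ± 0.28 (limma adjusted p = 1.22e-07). Flrt1, a leucine-rich transmembrane adhesion protein, was at 2.98, 3.07 and 3.65 TPM under tamoxifen and at 0.53, 0.57 and 0.65 TPM under letrozole. Its tamoxifen libraries were close to one another and far above the letrozole libraries, with a difference of 1.42 ± 0.15 (limma adjusted p = 5.01e-05). Flrt1 lies inside the span of Macrod1, and reads of overlapping genes may be shared between them.

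Plppr3, Slc44a4 and Muc13 rose as well. Plppr3, a phospholipid phosphatase-related membrane protein, was at 13.70, 22.35 and 17.55 TPM under tamoxifen and at 5.24, 4.63 and 4.42 TPM under letrozole. The lowest tamoxifen library was above the highest letrozole library, and the difference was 1.69 ± 0.23 (limma adjusted p = 0.00168). Slc44a4, a choline transporter-like protein of epithelia, was at 2.74, 7.25 and 3.18 TPM against 0.71, 0.33 and 0.30 TPM, with tamoxifen replicate 2 highest and no overlap. It differed by 1.82 ± 0.25 (limma adjusted p = 0.00168). Muc13, a transmembrane mucin of epithelial surfaces, was at 2.21, 10.98 and 2.36 TPM against 0.16, 0.09 and 0.22 TPM. Here too replicate 2 stood far above the other tamoxifen mice, which were themselves above every letrozole mouse, and the difference was 2.13 ± 0.34 (limma adjusted p = 0.00709). Without tamoxifen replicate 2 all of Plppr3, Slc44a4 and Muc13 still passed, with Muc13 at 1.51 (limma adjusted p = 0.00689).

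Tgm2 was the most abundant of the genes that rose, and Mtss1l and Pcp4 were also well above 10 TPM. Tgm2, the tissue transglutaminase that cross-links proteins, was at 102.62, 177.57 and 275.88 TPM under tamoxifen and at 65.26, 61.18 and 59.05 TPM under letrozole. The letrozole mice were tightly grouped and the tamoxifen mice spread out above them, by 1.46 ± 0.26 (limma adjusted p = 0.0155). Pcp4, a small regulator of calmodulin, was at 16.26, 32.18 and 21.01 TPM against 3.03, 1.86 and 2.49 TPM. Every tamoxifen mouse had more than every letrozole mouse, and the difference was 2.76 ± 0.50 (limma adjusted p = 0.025). Fam78b was at 2.97, 14.12 and 24.65 TPM against 1.19, 1.08 and 1.27 TPM, with replicate 1 near the letrozole level (2.41 ± 0.40, limma adjusted p = 0.0119). Mtss1l, an adaptor between actin and membranes, was at 14.59, 29.66 and 39.18 TPM against 6.71, 6.65 and 9.25 TPM (1.66 ± 0.29, limma adjusted p = 0.0155). Ptpn5, a tyrosine phosphatase, was at 2.03, 3.52 and 1.61 TPM against 0.57, 0.04 and 0.15 TPM (1.42 ± 0.27, limma adjusted p = 0.0318). None of these 5 genes passed without tamoxifen replicate 2, where Tgm2 was at 1.43 (limma adjusted p = 0.142), Pcp4 at 2.51 (0.241), Fam78b at 2.21 (0.142), Mtss1l at 1.57 (0.152) and Ptpn5 at 1.19 (0.31).

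**Figure D2:**
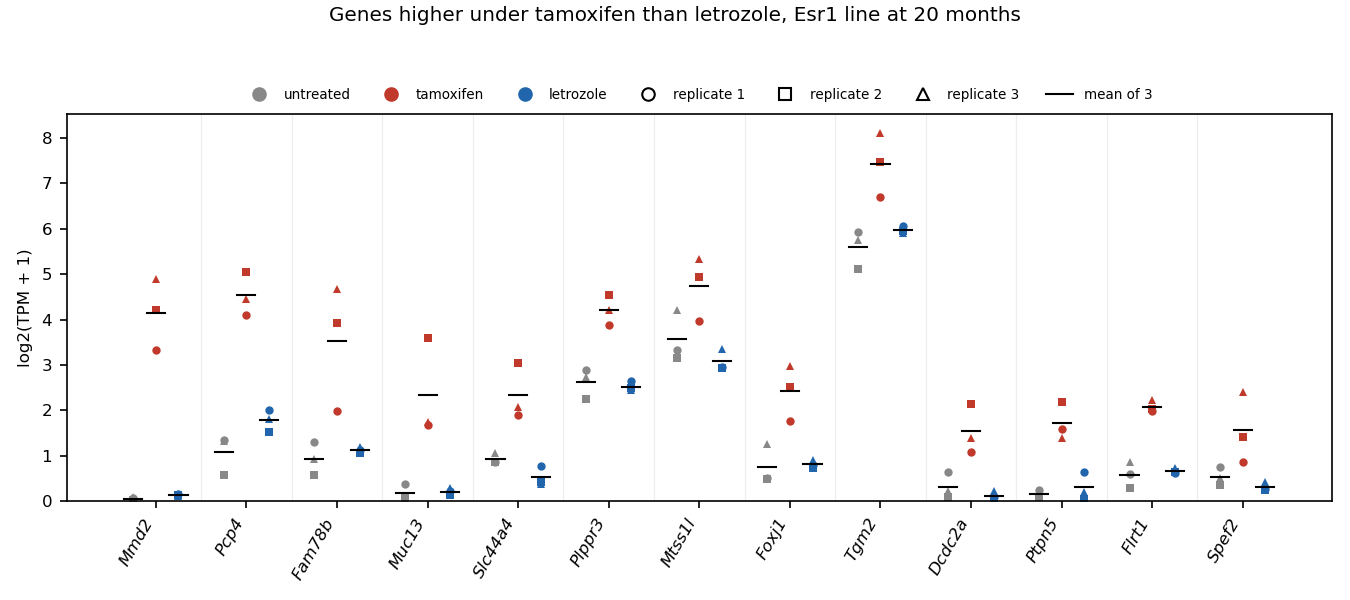
Levels in log2(TPM + 1) on the y axis of the 13 named genes that passed higher under tamoxifen, for each untreated (grey), tamoxifen (red) and letrozole (blue) mouse of the Esr1 line, with replicates by symbol and the group mean as a bar. The tamoxifen points lie above the letrozole points for every gene shown, most widely for Mmd2, and the tamoxifen circle of replicate 1 is usually the lowest of its group.

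Another 6 genes that passed higher fell outside the naming rule, and they are named because they complete the count. Asic2, an acid-sensing ion channel, Atg9b, an autophagy protein, and Whrn, a scaffold protein of sensory hair cells, averaged under 2 TPM. The predicted genes Gm7993, Gm8550 and AC109619.1 also passed. Gm8550 lies inside Akr1cl, an aldo-keto reductase gene, whose own levels were 61.77, 72.73 and 130.87 TPM under tamoxifen and 14.98, 6.09 and 3.62 TPM under letrozole. Akr1cl thus showed one of the widest gaps in the table with no overlap, yet its letrozole and untreated libraries scattered, and 3.40 ± 0.72 did not pass (limma adjusted p = 0.0881). Reads of Gm8550 and Akr1cl may be shared.

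Genes of motile cilia were among those higher. A list of 41 such genes was drawn up after Foxj1 was seen, so its counts are a description. Foxj1, the transcription factor that switches on the motile cilium programme, was at 2.39, 4.69 and 6.88 TPM under tamoxifen and at 0.74, 0.66 and 0.87 TPM under letrozole. The groups were apart, and Foxj1 rose by 1.60 ± 0.26 (limma adjusted p = 0.00793). Spef2, a protein of flagella and cilia, was at 0.83, 1.67 and 4.26 TPM against 0.20, 0.19 and 0.33 TPM. It passed at the very limit, with 1.25 ± 0.25 (limma adjusted p of 0.05 after rounding, and just under it before). Dcdc2a, a doublecortin protein of ciliary microtubules that is not on the list, was at 1.12, 3.39 and 1.62 TPM against 0.06, 0.03 and 0.16 TPM (1.42 ± 0.26, limma adjusted p = 0.025). Without tamoxifen replicate 2 none of these 3 passed, with Foxj1 at 1.56 (limma adjusted p = 0.0679), Spef2 at 1.32 (0.165) and Dcdc2a at 1.12 (0.272). Of the 41 list genes 16 were high enough to test. Of these, 2 passed higher, Foxj1 itself among them, against 0.0983% of all genes. Because Foxj1 prompted the list, this count is no test of it. In 7 of the 16, Foxj1 included, all tamoxifen libraries lay above all letrozole libraries, against 11.8% of all genes. In 1, Tppp3, they lay below, at 46.65, 30.46 and 47.36 TPM against 65.17, 58.22 and 51.47 TPM. The axonemal dynein gene Dnah11 and Cfap44 were among the 7 higher, at 0.94 and 1.11, and did not pass. The multiciliation switch Mcidas was at 0 in all 6 libraries and Dnah5 at 0.01 TPM or less.

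The sequences upstream of these genes were searched for the sites through which oestrogen receptor is known to act. RefSeq promoter windows (GRCm38.p6, 250 bases before an annotated start) were held for 11 of the 19 genes that rose, 14 windows in all. A gene can have several starts, so that some windows lie within the gene's own span. The full oestrogen response element, GGTCA and TGACC with 3 free bases between them, was in 0 of the 14, in 0 of the 14720 windows of all genes tested and in 0.0639% of all windows in the table, both strands searched. Its half-site GGTCA, which the full element contains, was in 5 of the 14 (35.7%), in 33.6% of the windows of genes tested and in 35.2% of all windows. The AP-1 site TGANTCA was in 2 of the 14 (14.3%), both of Muc13, in 4.79% of the windows of genes tested and in 6.75% of all windows. A match describes the letters and is not a measured binding site. The windows of Pcp4 (chr16:96467356-96467605, plus strand) and Muc13 (chr16:33793787-33794036, plus strand) are shown because each lies before the whole of its gene and holds a pair of half-sites. Capitals mark half-sites on either strand, and the AP-1 site in Muc13.
Pcp4: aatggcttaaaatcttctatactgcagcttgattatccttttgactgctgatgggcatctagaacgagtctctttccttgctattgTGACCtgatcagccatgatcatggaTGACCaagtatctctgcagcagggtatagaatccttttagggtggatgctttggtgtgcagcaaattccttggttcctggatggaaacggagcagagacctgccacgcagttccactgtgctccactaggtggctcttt
Muc13: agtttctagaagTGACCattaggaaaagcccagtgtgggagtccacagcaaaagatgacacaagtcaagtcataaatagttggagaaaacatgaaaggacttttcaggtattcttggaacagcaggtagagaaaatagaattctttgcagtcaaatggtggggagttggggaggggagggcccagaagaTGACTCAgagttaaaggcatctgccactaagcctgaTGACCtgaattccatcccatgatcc
The Muc13 window lies inside the predicted gene Gm15658.

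Established targets of oestrogen receptor formed a list of 20 genes, of which 18 were tested. None passed (0 of 18, against 0.129% of all genes), 15 were above 0, and the median difference was 0.32 against 0.05 over all genes. In 5 of the 18 the tamoxifen libraries were all above the letrozole libraries, against 11.8% of all genes. Pgr, the progesterone receptor, was at 9.20, 10.08 and 8.48 TPM under tamoxifen and at 2.52, 1.90 and 2.52 TPM under letrozole. The groups were far apart and tight, with untreated mice between or below at 4.73, 1.33 and 5.23 TPM. The difference of 1.63 ± 0.39 did not pass (limma adjusted p = 0.155). It passed in 0 of 19 alternative runs, where the smallest limma adjusted p was 0.0503. Prlr, the prolactin receptor, was at 28.68, 31.22 and 34.35 TPM against 14.47, 15.89 and 14.06 TPM. Again the groups did not overlap, and 1.03 ± 0.35 did not pass (limma adjusted p = 0.418).

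Of the other targets, Ccnd1, Wnt4 and Rara also had all tamoxifen libraries above all letrozole libraries. Their differences were 0.42, 0.35 and 0.28, and none passed (limma adjusted p from 0.783 to 0.888). The remaining targets tested overlapped between the drugs. Greb1, a receptor cofactor, overlapped at 1.18 to 2.31 TPM under tamoxifen and 0.66 to 1.66 TPM under letrozole. The growth factor gene Areg (0.25 ± 0.59) and the nuclear cofactor Nrip1 (0.01 ± 0.21) overlapped as well. Tnfsf11, the RANK ligand through which progesterone drives its neighbours to divide, was at 0.11, 0.22 and 0.04 TPM under tamoxifen and at 0.21, 0.03 and 0.15 TPM under letrozole. Both drug groups were far below the untreated mice at 2.19, 5.14 and 7.55 TPM, and did not differ beyond their spread (-0.01 ± 0.56, limma adjusted p = 1). Pdzk1 and Agr2 were too low to test.

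Hormone-sensing luminal markers gave a like picture, with 0 of 14 passing, against 0.129% of all genes. Of the 14, 10 were above 0, with a median of 0.33 and a range of -0.65 to 1.63. In 7 of the 14 the groups did not overlap and tamoxifen was higher, against 11.8% of all genes. Pgr, Prlr and Esr1 belong to this list too. Foxa1, a pioneer factor that opens chromatin for oestrogen receptor, was at 3.34, 3.16 and 4.76 TPM against 0.94, 1.27 and 1.05 TPM (1.18 ± 0.34, limma adjusted p = 0.285). Gata3, a luminal transcription factor, was at 14.18, 18.01 and 11.05 TPM against 5.76, 4.50 and 7.23 TPM (1.17 ± 0.31, limma adjusted p = 0.207). The gaps were clear in both genes, and neither passed.

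The amount of epithelial RNA moved with these results. Of 15 general epithelial genes, 15 were above 0, with a median of 1.13 and a range of 0.54 to 1.58, and 11 had no overlap, against 11.8% of all genes, yet 0 passed (limma adjusted p from 0.196 to 0.792). Their summed level was 364.76, 670.07 and 275.7 TPM in the tamoxifen mice, 193.63, 145.32 and 218.68 TPM in the letrozole mice and 565.59 to 718.46 TPM in the untreated mice. Every tamoxifen mouse was above every letrozole mouse, and none of the 15 genes was at 0. Cldn4, a tight junction claudin, led with 12.10, 17.40 and 15.05 TPM against 5.16, 3.79 and 3.87 TPM. With the level of this list in each library as a covariate, an alternative added after the data were seen, 8 of the 25 calls remained. These were Mmd2, Flrt1, Plppr3, Slc44a4, Asic2, Gm8550 and AC109619.1 among the higher genes and Gm21769 among the lower. Standard errors were larger in that fit for most of the 25. Of the calls it lost, Fam78b was at 2.52 ± 0.49 against 2.41 ± 0.40 without the covariate, Atg9b at 0.78 against 0.74 and Cd300ld3 at -1.58 against -1.83, while Dcdc2a was at 1.03 against 1.42 and Gm454 at -0.86 against -1.27.

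Milk protein genes differed between the tamoxifen mice. Their summed level was 1496, 7693 and 767 TPM under tamoxifen and 571, 444 and 922 TPM under letrozole. Replicates 1 and 2 were thus above every letrozole mouse, and replicate 3 was within their range. All 16 genes had a difference above 0, with a median of 1.54. None passed, and 4 did not overlap, against 11.8% of all genes. Csn1s2a, a casein, was at 148.49, 1389.54 and 4.2 TPM under tamoxifen and at 9.64, 0.42 and 13.87 TPM under letrozole. Tamoxifen replicate 2 was far above all, replicate 3 within the letrozole range, and untreated mice higher still at 2842 TPM or more. Mfge8, a milk fat globule protein, was the steadiest at 282.81, 625.37 and 291.52 TPM against 153.77, 125.12 and 209.47 TPM (1.22 ± 0.33, limma adjusted p = 0.227). Among 11 luminal progenitor and alveolar genes, 10 were above 0, with a median of 0.90 against 0.05 over all genes. None passed, and 0 of the 11 had all tamoxifen mice above all letrozole mice, against 11.8% of all genes.

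**Figure D3:**
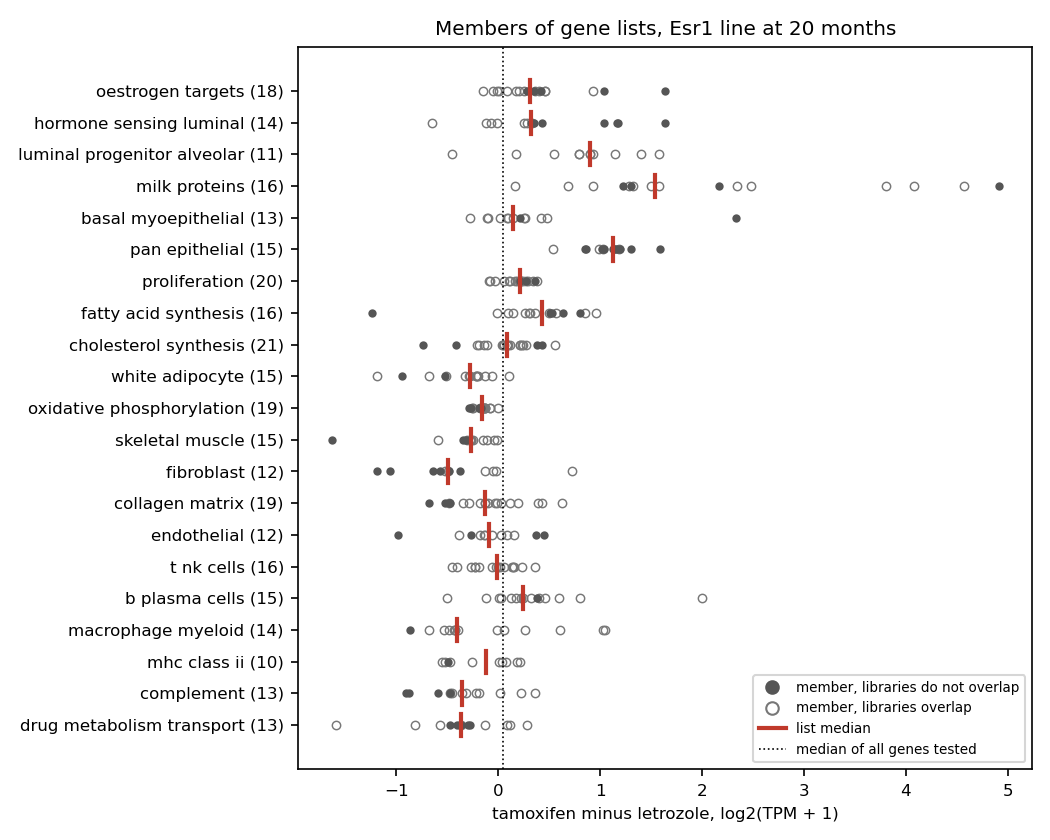
Tamoxifen minus letrozole differences in log2(TPM + 1) on the x axis for the tested members of 21 gene lists, 1 point per gene, filled where the 3 and 3 libraries did not overlap, with the list median in red and the median of all genes as a dotted line. General epithelial genes lie wholly to the right with a median of 1.13, milk protein genes spread widest, and no member of these lists passed the test.

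Oxtr, the oxytocin receptor by which myoepithelial cells contract, stood out among 13 basal genes. It was at 49.03, 88.86 and 171.33 TPM under tamoxifen and at 18.18, 14.98 and 18.89 TPM under letrozole. The groups were apart, replicate 3 was the highest, and 2.33 ± 0.58 did not pass (limma adjusted p = 0.175). The structural basal genes did not follow. Krt14, Krt5 and Trp63 overlapped between the drugs, and the median of the list was 0.15. Aqp5, a water channel of secretory epithelia, behaved like Oxtr at 13.59, 50.09 and 199.72 TPM against 5.46, 5.70 and 7.62 TPM. Its tamoxifen mice differed from one another by more than its letrozole mice did, and 2.88 ± 0.62 did not pass (limma adjusted p = 0.102). Aqp2, next to Aqp5 on chromosome 15, was at 0.65, 1.91 and 7.68 TPM against 0.10, 0.05 and 0.14 TPM (1.66 ± 0.34, limma adjusted p = 0.0575). Krt4, a keratin of stratified linings, was at 0.37, 2.24 and 7.54 TPM against 0.05, 0.11 and 0.06 TPM (1.65 ± 0.37, limma adjusted p = 0.115). In these 3 genes replicate 1 was lowest and replicate 3 highest of the tamoxifen mice. Without replicate 1 they passed, Aqp5 at 3.81 (limma adjusted p = 0.000618), Aqp2 at 2.20 (0.000408) and Krt4 at 2.29 (0.000169), and without replicate 3 Aqp2 alone of the 3 passed, at 1.00 (limma adjusted p = 0.0231). Aqp5 is also a marker on a list of 13 salivary gland genes, of which 4 were tested, with a median of 1.07. Of these 4, 3 were above 0 and 0 passed, against 0.129% of all genes. At an unadjusted limma p under 0.05, 3 were higher, Aqp5 among them, against 5.92% of all genes. The salivary list, Aqp5 included, summed to 65.99, 95.78 and 267.98 TPM in the tamoxifen mice. In the letrozole mice it summed to 82.36, 101.81 and 90.48 TPM. Aqp5 alone made up 199.72 of the 267.98 TPM of tamoxifen replicate 3, so the high sum there restates Aqp5. The salivary markers Bpifa2, Smr3a, Dcpp1 and Dcpp3 were at 0 in all 6 libraries, and the part of salivary tissue in these results was not tested.

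Genes higher under letrozole were fewer and lower in level. Of the 6 that passed, Cd300ld3, a CD300 family receptor of myeloid cells on chromosome 11, was the 1 that the naming rule allowed. It was at 0.13, 0 and 2.32 TPM under tamoxifen and at 5.47, 4.47 and 3.73 TPM under letrozole. Tamoxifen replicate 3 lay between its own group and the letrozole group, and the untreated mice were at 0.18 TPM or less. Cd300ld3 was lower under tamoxifen than under letrozole by 1.83 on the log2(TPM + 1) scale (SE 0.28, limma adjusted p = 0.00528). Without tamoxifen replicate 2 it was lower by 1.51, which did not pass (limma adjusted p = 0.0507). Its neighbour Cd300ld4 was at 0, 0 and 0.54 TPM against 1.89, 1.21 and 1.01 TPM (-1.02 ± 0.18, limma adjusted p = 0.0155), and did not pass without tamoxifen replicate 2 (-0.92, limma adjusted p = 0.155). It shares its span with Cd300c2 and Cd300ld2, and members of this family are near copies, so both values are uncertain. The other 7 tested members of the family overlapped between the drugs.

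The remaining 4 that passed lower were the predicted genes Gm21769, Gm454, Gm49124 and Gm12070. Gm21769 was listed at 0 in all tamoxifen and untreated libraries and at 1.18, 1.19 and 2.10 TPM under letrozole. Gm12070 was at 0, 0.14 and 1.47 TPM against 2.53, 2.47 and 1.85 TPM, again with tamoxifen replicate 3 nearest to letrozole. Across the 6 genes that passed lower, replicate 3 was the highest tamoxifen library in 5.

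Tamoxifen replicate 3 shared its levels with the letrozole mice in a wider set. Without this library 103 genes passed, 58 higher and 45 lower, and 22 of the 25 calls remained. Replicate 3 had no part in choosing these genes, but they were chosen for a gap between the other tamoxifen mice and these same letrozole mice. Over all genes tested, replicate 3 correlated at 0.968 to 0.972 with the letrozole libraries. With tamoxifen replicates 1 and 2 it correlated at 0.958 and 0.946. Among the 45 lower genes, replicate 3 was nearer to the letrozole mean than to the other tamoxifen mice in 41. Among the 58 higher genes it was nearer to letrozole in 36. The same share over all genes was not counted, so these counts are a description. Examples picked after their values were seen are Rps2 and Rpl34, ribosomal protein genes. Rps2 was at 5.41, 7.22 and 163.54 TPM under tamoxifen, at 172.27, 144.45 and 152.09 TPM under letrozole and at 5.08 to 7.21 TPM in untreated mice. Rpl34 was at 4.06, 5.06 and 78.93 TPM against 96.05, 77.55 and 83.30 TPM. Pttg1, the securin that holds sister chromatids together, was at 1.57, 3.37 and 15.25 TPM against 17.63, 16.38 and 14.83 TPM. With all libraries none of these passed, with a limma adjusted p of 0.198 for Rps2, 0.148 for Rpl34 and 0.196 for Pttg1. Without replicate 3 all of them passed, Rps2 at -4.43, Rpl34 at -3.96 and Pttg1 at -2.36. They were picked because replicate 3 lay at the letrozole level, so passing without it is no test. In Rps2 and Rpl34 4 of the 6 drug-treated mice formed 1 high level and the other 2 lay with the untreated mice. Ribosomal protein genes have many near-identical copies, so their estimates are uncertain.

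Zinc finger genes at the far end of chromosome 2 showed the same split. Zfp973 was at 0.66, 0.65 and 7.28 TPM under tamoxifen and at 8.08, 8.77 and 9.88 TPM under letrozole (-1.80 ± 0.37, limma adjusted p = 0.0575). Zfp966 was at 0.91, 1.01 and 6.80 TPM against 8.18, 7.53 and 7.33 TPM (-1.48 ± 0.35, limma adjusted p = 0.144). Untreated mice were low in both, at 2.05 TPM or less. Without replicate 3 both passed, Zfp973 at -2.58 and Zfp966 at -2.15. Leaving out the tamoxifen library that lay near the letrozole level favours this outcome, so it is no test. Of the 45 genes that were lower without replicate 3, 34 had a RefSeq position. Of these, 9 started near the far end of chromosome 2, the first at base 175372034 and the last at base 176892509. These bounds are the starts of the 9 genes themselves. The share of all tested genes that start there was not counted, so the 9 are a description and no test of a cluster. Such zinc finger genes are near copies of one another too. The labels give each mouse a number of its own and name no litter. In the CYP19A1 line the drug groups overlapped in these genes. Over both drugs Zfp973 was at 14.61 to 18.16 TPM there and Zfp966 at 11.6 to 15.25 TPM. Rpl34 was at 35.12 to 50.91 TPM there and Rps2 at 3.59 to 6.45 TPM. Whether such genes follow the drug or another difference between the mice was not tested.

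**Figure D4:**
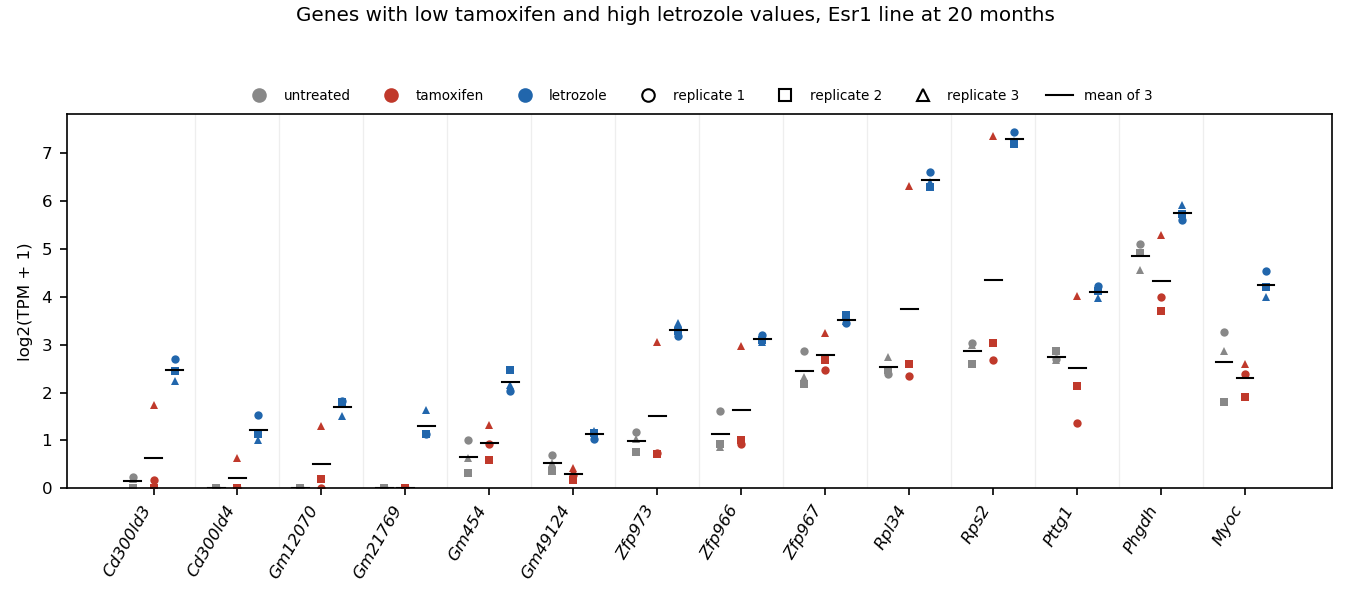
Levels in log2(TPM + 1) on the y axis of 14 genes with low tamoxifen and high letrozole values in the Esr1 line, by mouse, with untreated in grey, tamoxifen in red and letrozole in blue, replicates by symbol and the group mean as a bar. The first 6 genes passed the test and the other 8 did not. For Rps2, Rpl34, Zfp973 and Zfp966 the tamoxifen triangle of replicate 3 sits at the letrozole level, while replicates 1 and 2 sit with the untreated mice.

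The other genes with the smallest p among those lower under tamoxifen did not pass, and several had all 3 tamoxifen mice low. Myoc, a secreted matrix protein, was at 4.25, 2.74 and 5.05 TPM against 22.09, 17.50 and 14.86 TPM (-1.94 ± 0.48, limma adjusted p = 0.174). Uchl1, a ubiquitin hydrolase of neurons, was at 1.99, 2.11 and 1.38 TPM against 3.64, 4.27 and 2.82 TPM (-0.69 ± 0.18, limma adjusted p = 0.196). Hpgd, which breaks down prostaglandins, was at 1.95, 2.51 and 3.27 TPM against 6.91, 6.35 and 6.08 TPM (-1.07 ± 0.31, limma adjusted p = 0.289). All 3 had groups apart. Phgdh, the first enzyme of serine synthesis, was at 14.89, 11.96 and 38.20 TPM against 47.90, 51.90 and 59.52 TPM, with replicate 3 again the highest of its group (-1.43 ± 0.38, limma adjusted p = 0.228, and -1.91 with 0.0119 without that replicate).

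The same drugs in the CYP19A1 line were given to a separate set of 6 mice. There 48 genes passed (0.248%), 47 higher under tamoxifen (0.243%) and 1 lower (0.00517%). All 19 genes that rose in the Esr1 line were above 0 in the CYP19A1 line, and 11 of them passed there. Mmd2 was at 42.11, 32.91 and 31.02 TPM under tamoxifen and at 0.02, 0.15 and 0.18 TPM under letrozole in that line. The difference was 5.02 ± 0.28 (limma adjusted p = 1.87e-09). No CYP19A1 library under letrozole came near any under tamoxifen. Tgm2 was at 249.17, 203.52 and 202.10 TPM against 53.43, 70.82 and 62.69 TPM there, also with groups far apart (1.79 ± 0.26, limma adjusted p = 0.00118). Muc13 was at 0.78, 1.14 and 1.15 TPM against 0.15, 0.08 and 0.12 TPM and did not pass there (0.85 ± 0.34, limma adjusted p = 0.41). Akr1cl, Aqp5, Aqp2, Krt4 and Oxtr, which missed the threshold in the Esr1 line, passed in the CYP19A1 line, with Akr1cl at 7.11 ± 0.72 (limma adjusted p = 3.97e-05).

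The difference between the lines was tested for every gene. By limma, 0 of 19325 genes passed (853 at an unadjusted p under 0.05, 4.41%). Among the 19 higher genes the smallest adjusted p of the limma interaction was 0.966 and among the 6 lower genes 0.167, for Gm21769. Of the 6 genes lower under tamoxifen in the Esr1 line, 0 passed in the CYP19A1 line. Cd300ld3 was at 0.11 TPM or less in all 6 drug-treated mice of that line, and Cd300ld4 and Gm21769 were at 0. Without tamoxifen replicate 3 the interaction was called in 28 genes, 3 higher and 25 lower in the Esr1 line.

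**Figure D5:**
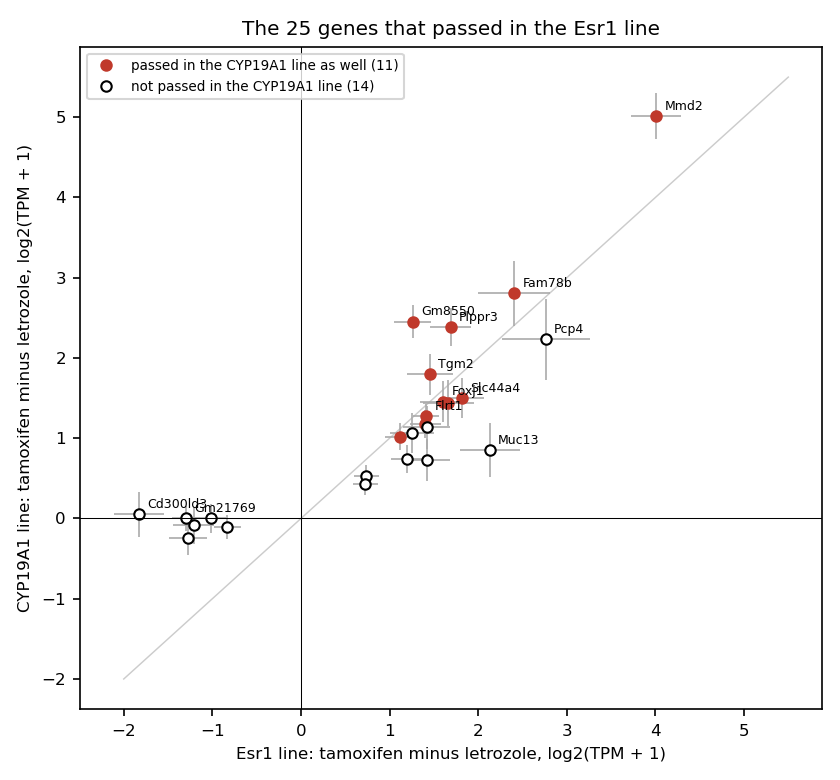
Tamoxifen minus letrozole differences in log2(TPM + 1) in the Esr1 line (x axis) and the CYP19A1 line (y axis) for the 25 genes that passed in the Esr1 line, with standard errors of the fit as bars and a grey line of equality. The 19 higher genes lie above 0 in both lines, filled where they passed in both, and the 6 lower genes lie near 0 in the CYP19A1 line.

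How far each call held up differed between genes. Mmd2, Flrt1 and AC109619.1 passed in every alternative run except the fit to the 6 compared libraries alone, where Mmd2 and Flrt1 reached a limma adjusted p of 0.0517. Tgm2 passed in 11 of 19 alternatives and Pcp4 in 11 of 19, both being lost without tamoxifen replicate 2 or without any 1 of the letrozole libraries. Foxj1 passed in 11 of 18, Muc13 in 13 of 18, Cd300ld3 in 12 of 18 and Spef2 in 7 of 17. None of the 25 genes that passed changed direction in any alternative run, whereas 12 named genes that did not pass, Areg, Nrip1 and Tnfsf11 among them, did so in at least 1. Without tamoxifen replicate 2, the drug-treated mouse of the Esr1 line with the highest epithelial level, 9 genes passed, all of them among the 25.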

How the data were processed

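Whole mammary gland RNA was sequenced as stranded, ribosomal RNA-depleted total RNA, per the labels' protocols. The authors deposited 1 table of TPM, 55487 genes in 24 libraries, to 2 decimals. RSEM 1.3.1 and STAR 2.7.9a, together with Trim Galore 0.6.5 and FastQC 0.11.9, are the tools in the submitters' processing notes, and mm10 is the build. What each did, and the annotation, was not given in the sources used here. TPM keeps no depth, so depth and counting error are unknown, and each value is a share of its library.

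Values were tested as log2(TPM + 1), a pseudocount of 1, with limma 3.58.1 in R 4.3.3 (eBayes, trended and robust) on the 19325 genes that reached 1 TPM in 3 or more libraries. All 24 libraries, 8 groups of 3, entered 1 fit with 16 residual degrees of freedom. Tests were two-sided, with the threshold at 0.05 after Benjamini-Hochberg adjustment. Comparisons of each drug with untreated mice share libraries with the main one and are given as values only. The script was tested on simulated data.

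Named were Esr1, Cyp19a1, the oestrogen targets, up to 15 genes per direction with the largest differences that passed, and up to 10 by smallest p where fewer passed. Predicted genes, small RNAs, pseudogenes, immune segments, genes under 2 TPM and overlapping groups were left out of the ranking. Members of described lists that passed, or had the smallest p, were named too. The 40 lists held 561 members, of which 559 were in the table and 4 were matched by a RefSeq synonym. None of the 40 had a member that passed. Another 4 lists (motile cilia, aquaporins, the CD300 family, transglutaminases) were added after values were seen. Members and lists were chosen with earlier results of these data known.

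Replicates carry different animal numbers, so they are taken as separate mice. Coordinates and promoters come from RefSeq on GRCm38.p6, the assembly of mm10. Alternatives covered the pseudocount, filters, scaling, libraries in the fit, a replicate block, covariates, moderation and leaving out each library.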

Additional observations from a re-analysis of the deposited data

How the results depend on the processing

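Of the 25 genes in the Esr1 line, 0 passed under every alternative and 0 changed direction. The count was 13 with a pseudocount of 0.1, 58 without a filter, 6 with a filter at 5 TPM, 59 with median-ratio scaling and 55 when rescaled without the most abundant genes. It was 1 when only the compared groups were fitted, and 0 of the 25 were kept there. When only the Esr1 line was fitted it was 8, with 6 of the 25 kept. It was 5 with muscle and epithelial covariates, all among the 25. With the epithelial covariate alone, which was added after the data were seen, it was 9, with 8 of the 25 kept. Leaving out each library gave 9 to 103. Libraries that moved the count by over 1.5 times were tamoxifen replicates 1 (62), 2 (9) and 3 (103) and letrozole replicates 1 (16), 2 (9) and 3 (14). In the CYP19A1 line the 48 became 31 at 5 TPM and 88 without untreated Esr1 replicate 2, also added later, and 21 to 42 with a library left out. There the count was 24 without letrozole replicate 1, 28 without tamoxifen replicate 1 and 21 without tamoxifen replicate 2. The 0 genes of the difference between lines became 1 without trend and robust settings, 1 with a filter within the compared libraries, 1 with median-ratio scaling, 1 when only the compared groups were fitted and 3 without a filter, and 0 to 28 with a library left out. Other than fewer genes or libraries in a fit, the cause of these changes was not tested.

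Among named genes that did not pass, 12 changed sign in at least 1 alternative. With the epithelial covariate alone these were Areg (-0.50), Ccnd1 (-0.36), Esr1 (0.15), Igf1 (0.46), Ltf (-0.083), Myc (-0.23), Stc2 (-0.036), Susd3 (-0.022) and Xbp1 (-0.025). With both covariates they were Areg (-0.70), Ccnd1 (-0.27), Esr1 (0.18), Igf1 (0.44), Ltf (-0.36), Myc (-0.16), Stc2 (-0.073) and Susd3 (-0.11), and with median-ratio scaling Nrip1 (-0.058). With a library left out, Areg ranged from -0.36 to 1.02, Cxcl12 from -0.12 to 0.013, Igf1 from -0.34 to 0.055, Nrip1 from -0.066 to 0.046, Stc2 from -0.072 to 0.24, Susd3 from -0.036 to 0.29 and Tnfsf11 from -0.074 to 0.046. The cause was not tested.

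Replicate numbers did not pair the mice: deviations of same-numbered mice correlated at -0.01, -0.15 and -0.06. With the replicate block 29 genes passed, 24 of them among the 25. The unknown read depth limits statements about genes near 0.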

Other observations

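None of the stromal and metabolic genes named here passed. Of 12 fibroblast genes, 6 had all tamoxifen mice below all letrozole mice, against 6.93% of all genes tested, with a median of -0.49. Gsn, an actin-severing protein, was at 1008, 835 and 1432 TPM under tamoxifen and at 2213, 2710 and 2377 TPM under letrozole (-1.19 ± 0.52, limma adjusted p = 0.591). Pi16, a marker of adventitial fibroblasts, was at 26.52, 16.10 and 17.49 TPM against 57.61, 39.67 and 32.29 TPM (-1.06 ± 0.44, limma adjusted p = 0.569). Untreated mice varied widely, with Pi16 from 12 to 39.25 TPM. In the CYP19A1 line the fibroblast median was 0.36, and the difference between the lines did not pass for any of these genes (smallest limma adjusted p 0.966).

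Fasn, the fatty acid synthase, was at 522.34, 114.01 and 88.95 TPM under tamoxifen and at 84.96, 101.81 and 82.40 TPM under letrozole. Tamoxifen replicate 1 was above the untreated range of 288.69 to 487.29 TPM, and the other 5 mice were below it. Scd1, a fatty acid desaturase, went the other way at 1293, 540 and 1342 TPM against 2265, 2284 and 2396 TPM (-1.24 ± 0.57, limma adjusted p = 0.63). Skeletal muscle genes were all below 0, 15 of 15, with summed levels of 23323 to 32274 TPM under tamoxifen and 29646 to 32676 TPM under letrozole. Proliferation genes summed to 50.47 to 81.73 TPM under tamoxifen, 47.88 to 58.1 TPM under letrozole and 138.07 to 139.33 TPM in untreated mice, so both drug groups were below the untreated mice and overlapped each other.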
